A study of Mus musculus with 48 samples.

Results

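A set of 344 active promoters in mouse embryonic stem cells carried the BTB zinc finger protein ZFP131 without a nearby event of another such protein, ZBTB11. They were chosen from 19364 wildtype H3K4me3 domains of at least 500 bp, out of 48733 such domains in all. A chosen domain had a ZFP131-HA binding event within 500 bp, no ZBTB11-HA event within 500 bp, and no overlap with a wildtype H3K27me3 domain. For comparison, 1385 H3K27me3-free domains had events of both factors, 4977 had ZBTB11 alone and 5946 had neither, while 6712 overlapped wildtype H3K27me3. The rule therefore used 4 lists (ZFP131, ZBTB11, wildtype H3K4me3 and wildtype H3K27me3), and their values at these promoters are given as a description, with no test.

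Chromatin immunoprecipitation sequencing (ChIP-seq) was performed for 9 targets on 48 samples in 24 groups of 2. The genotypes were wildtype, labelled as the iCre line of the Ainv15 background, Zbtb11KO carrying a doxycycline-inducible HA-tagged Zbtb11, Zfp131KO carrying a doxycycline-inducible HA-tagged Zfp131, and a double knockout carrying inducible Zbtb11-HA and Zfp131-V5. HA was measured after 3 days with doxycycline in medium with LIF and the 2i kinase inhibitors. Every other target was measured after 3 days without doxycycline in LIF medium lacking 2i. The binding map thus comes from a re-expressed, tagged factor in another medium than the marks and cofactors. The labels name 1 line per genotype, so the knockout and a difference between lines cannot be told apart.

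The deposited files hold 1 pooled value per region and group, so listed reads carry no SD, and they are not scaled for depth between genotypes unless stated. At a promoter they are summed over every whole domain that overlaps it, or over the events within 500 bp. They therefore also change with the width of a domain. Replicate error enters through the authors' deposited DESeq2 tables, whose adjusted p under 0.05 defines "higher" and "lower" below. These p-values measure the spread between 2 libraries per group, which may be technical. Event lists rested on 24.0 M (ZFP131) to 71.6 M reads (NELF in the double knockout). The wildtype NELF list names 1 replicate in its header. The embryonic stem cell label was checked on wildtype H3K27ac, which was listed at 9 of 10 pluripotency genes, among them Pou5f1, Sox2 and Nanog, and at 2 of 8 primitive endoderm, 1 of 6 trophectoderm, 0 of 6 fibroblast and 2 of 5 neural marker genes. H3K4me3 did not separate these lists. NELF was listed at 10 of the pluripotency genes in wildtype, 4 in Zbtb11KO cells, 6 in Zfp131KO cells and 4 with both deleted. None of the 10 was a ZFP131-alone promoter.

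ZFP131 and ZBTB11 combine a BTB domain, a protein interaction surface found in many transcriptional regulators, with DNA-binding zinc fingers. H3K4me3 marks the starts of active genes, H3K27ac marks active promoters and enhancers, and H3K27me3 is the Polycomb mark of silent genes. NELF holds RNA polymerase II shortly after initiation, SIN3A is the scaffold of a histone deacetylase complex, CHD4 is the remodelling ATPase of the NuRD complex, and SETD1A is an H3K4 methyltransferase.

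Sequences of some strongly bound promoters are shown for letters that are frequent there and that the rule did not use. They were picked after the matches were seen and include promoters with and without a match, so they are examples and carry no frequency. The letters TGACG, which read CGTCA on the other strand, are the half-site of the cyclic AMP response element (CRE), whose full palindrome is TGACGTCA. Capitals mark the half-site on either strand. The first pair are RefSeq promoters of GRCm38.p6, from 250 bases before to 50 bases after the start, for the strongest ZFP131 promoter, Larp7 (chr3:127553300-127553599, minus strand), and for Nup133 (chr8:123949216-123949515, minus strand). Both hold copies of the full palindrome, while the promoter of Pef1, the third in ZFP131 reads, has 0 matches.
Larp7: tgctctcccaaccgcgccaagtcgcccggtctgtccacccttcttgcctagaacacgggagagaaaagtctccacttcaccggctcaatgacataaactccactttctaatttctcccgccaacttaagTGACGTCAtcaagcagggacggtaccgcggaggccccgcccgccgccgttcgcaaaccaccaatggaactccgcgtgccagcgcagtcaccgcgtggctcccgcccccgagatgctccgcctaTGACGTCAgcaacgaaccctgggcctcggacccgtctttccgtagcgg
Nup133: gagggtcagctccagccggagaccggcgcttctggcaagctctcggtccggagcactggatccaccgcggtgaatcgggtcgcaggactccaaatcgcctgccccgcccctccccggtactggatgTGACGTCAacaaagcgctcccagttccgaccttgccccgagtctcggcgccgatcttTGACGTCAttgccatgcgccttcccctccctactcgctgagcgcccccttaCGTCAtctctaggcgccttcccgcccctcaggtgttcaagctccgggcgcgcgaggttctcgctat

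The next sequences, from the same RefSeq promoters, are windows of 101 bases centred on the strongest ZFP131 event, read in the direction of the gene. Mrpl2 (chr17:46646155-46646255, plus strand) shares its promoter with Klc4 and has 2 half-sites. Aasdh (chr5:76905476-76905576, minus strand), Glod4 (chr11:76243701-76243801, minus strand) and Ormdl3 (chr11:98587236-98587336, minus strand) have the full palindrome. Timm44 (chr8:4275858-4275958, minus strand) and Med27 (chr2:29346725-29346825, plus strand) have 1 half-site each. Qtrt2 (chr16:43889721-43889821, minus strand) and Sap30bp (chr11:115933560-115933660, plus strand) rank among the 12 strongest promoters and have no match within the window.
Mrpl2: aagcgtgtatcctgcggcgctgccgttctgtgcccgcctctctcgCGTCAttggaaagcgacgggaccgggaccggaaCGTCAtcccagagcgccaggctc
Aasdh: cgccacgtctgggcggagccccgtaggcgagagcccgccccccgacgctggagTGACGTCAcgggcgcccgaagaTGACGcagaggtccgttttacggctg
Glod4: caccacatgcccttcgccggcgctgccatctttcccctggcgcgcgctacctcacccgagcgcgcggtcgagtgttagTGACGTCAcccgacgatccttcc
Ormdl3: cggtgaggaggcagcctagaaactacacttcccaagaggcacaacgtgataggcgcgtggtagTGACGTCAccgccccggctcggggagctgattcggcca
Timm44: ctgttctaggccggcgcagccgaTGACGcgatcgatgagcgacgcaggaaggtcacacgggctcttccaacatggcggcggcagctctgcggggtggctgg
Med27: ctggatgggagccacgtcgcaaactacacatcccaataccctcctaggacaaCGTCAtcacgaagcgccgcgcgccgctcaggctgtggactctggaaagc
Qtrt2: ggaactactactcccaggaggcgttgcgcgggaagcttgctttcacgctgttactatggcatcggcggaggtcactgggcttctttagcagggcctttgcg
Sap30bp: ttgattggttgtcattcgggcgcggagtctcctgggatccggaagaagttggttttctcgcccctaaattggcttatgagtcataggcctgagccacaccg

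The CRE half-site became more frequent as ZFP131 reads rose. Of 336 RefSeq promoters at 251 of the 344 domains, 66.7% held TGACG on either strand, against 50.7% of 1711 promoters bound by both factors, 29.8% of 4742 bound by ZBTB11 alone, 26.9% of 3180 with neither and 20.8% of all 32851 promoters of the same length. From the lowest to the highest quartile of ZFP131 reads the share was 38.6%, 58.8%, 72.6% and 88.7% (n = 70, 85, 84 and 97 promoters). Promoters of the same domain can overlap and count the same letters more than once. With 1 promoter per domain the half-site was in 68.1% with ZFP131 alone and 52.7% with both factors. It was in 29.3% with ZBTB11 alone and 26.8% with neither. The quartile shares were not taken that way. The full palindrome TGACGTCA, which contains the half-site on both strands, was found in 18.2% of ZFP131-alone promoters and 1.79% of all promoters. Its share by quartile was 8.57%, 15.3%, 16.7% and 28.9%. The half-site was singled out after its values were seen, as the 5-letter run with the largest excess at ZFP131 events close to ZBTB11. By the rule, none of these events lies inside a ZFP131-alone domain.

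**Figure D1:**
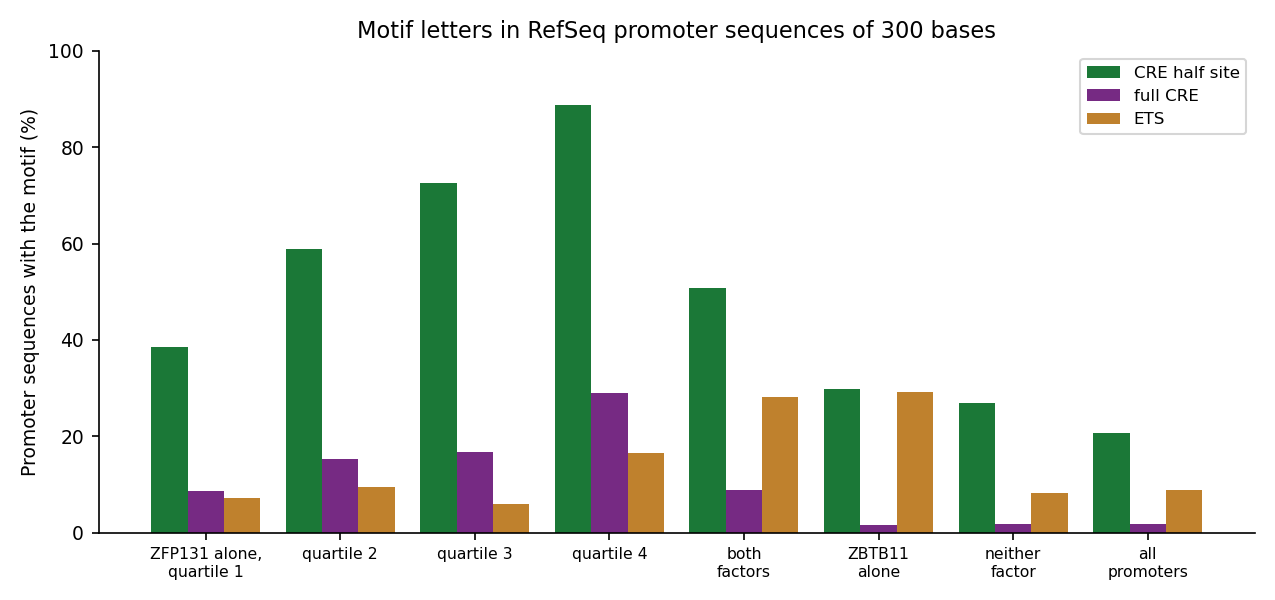
Percent of RefSeq promoters (y axis) holding the CRE half-site TGACG, the full CRE TGACGTCA or the ETS letters CCGGAAG, by promoter class and by quartile of ZFP131 reads. The half-site rises from 38.6% in the lowest to 88.7% in the highest quartile, while the ETS letters are at 10.1% of ZFP131-alone and 29.2% of ZBTB11-alone promoters.

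The ETS letters CCGGAAG were less frequent at ZFP131-alone promoters than in both classes with ZBTB11. They stood in 10.1% of ZFP131-alone promoters, 28.1% of promoters with both factors, 29.2% with ZBTB11 alone and 8.18% with neither. The letters CCAAT, the core of the NF-Y site, were in 45.5% of ZFP131-alone promoters, 30.2% with both factors, 36.3% with ZBTB11 alone, 47.6% with neither and 37.4% of all promoters. The GC box GGGCGG was in 67.9% of them, against 63.9% with both factors, 68.5% with ZBTB11 alone and 64.3% with neither. The median GC content was 61.3% at ZFP131-alone promoters, 63.0% with both factors, 61.7% with ZBTB11 alone, 59.3% with neither and 52.7% over all promoters. The part of base composition in the excess of the half-site over all promoters was not tested.

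Windows of 101 bases around the strongest event could be read at 120 of the 344 promoters, where a RefSeq promoter covers the whole window, and so hold only events up to 200 bases before a start. Of these, 55.8% held the half-site, against 45.0% of 505 windows of events close to ZBTB11 and 14.3% of 11886 promoters without ZFP131, read over the same length up to the start. By quartile the share was 31.2%, 39.4%, 55.9% and 81.1%. The 67 windows with the half-site had a median of 1088 summed ZFP131 reads, and the 53 without it had 211. A second run of letters, ACTACA, was present in 20.8% of these windows, in 8.51% of windows close to ZBTB11 and in 3.69% of promoters without ZFP131. It was not among the planned motifs, so its shares are a description. Over 300 bases it stood in 21.1% of ZFP131-alone promoters and 13.5% with both factors. The share was 10.4% with ZBTB11 alone, 10.6% with neither and 10.3% of all promoters. The half-site was within 10 bases of the event in 15.8% of the windows. The share was 13.3% for events close to ZBTB11 and 3.89% around the middle of the windows without ZFP131. In steps of 10 bases it was 10.0% from -10 to 0, 5.83% from 0 to 10 and 10.0% from 30 to 40, so no peak stood at the event. A match is a description of letters and does not show which protein binds there.

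At promoters named by a coding start, the strongest ZFP131 event was often close to that start. The rule and the naming both limit this distance, so it is a description. The 344 promoters drew 519 of the 3637 ZFP131 events (14.3%), and 16 promoters shared an event with a neighbouring one. A single event was found at 216 promoters, 2 at 81, 3 at 39 and 4 at 8, and in 321 (93.3%) an event lay inside the domain. Of the 255 promoters named by a protein-coding start, 155 (60.8%) had their strongest event within 100 bp of it, at a median position of -1 bp (25th and 75th percentiles -84.0 and 58.5). A further 61 were named by a boundary of a protein-coding gene, which may be its start or its end. Another 3 were named by a noncoding start, and 25 had no RefSeq gene at hand, 16 of them inside a gene body. The nearest ZBTB11 event was at a median of 29288 bp, from 514 to 598457 bp.

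Summed ZFP131 reads, which rank the promoters here, ran from 27.8 to 3036 with a median of 305. The 4 quartile groups spanned 27.8 to 108 (n = 87), 108 to 303 (n = 85), 307 to 1159 (n = 86) and 1162 to 3036 reads (n = 86). The log2 fold of the events over control ran from 1.40 to 7.82 with a median of 3.39. At the edges of the rule, Siva1 entered with a domain of 523 bp and Mmgt1 was left out at 494 bp. An unnamed domain inside Tapt1 (chr5:44225578-44226672, mm10) entered with ZFP131 at 477 bp, and Dusp7 was left out at 530 bp. C2cd4b entered with its nearest ZBTB11 event at 514 bp, and Ssbp4 was left out at 500 bp.

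Most wildtype measures of these promoters varied little with ZFP131 reads, and CHD4 was lower where ZFP131 reads were higher. Median domain length was 1614 bp (523 to 5825) and the median wildtype H3K4me3 read count 2309.5 (212 to 9129). Across the 344 promoters, which share libraries and domain width, the rank correlation of ZFP131 reads with wildtype reads was 0.09 for H3K4me3, -0.03 for NELF, 0.04 for SIN3A, -0.04 for SETD1A, 0.01 for serine-5-phosphorylated polymerase II, 0.01 for H3K27ac and -0.22 for CHD4.

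In wildtype cells NELF was listed at 98.3% of them, SIN3A at 99.4%, serine-5-phosphorylated polymerase II at 98.0% and an H3K27ac domain at 94.5%. ZBTB11-alone promoters were close to these shares, with 98.1%, 98.0%, 95.6% and 92.6% in that order, and all domains of 500 bp or more had 90.4%, 93.0%, 75.2% and 64.3%. SETD1A was listed at 75.6%, close to the 77.4% of ZBTB11-alone promoters, while promoters with both factors stood at 96.5% and those with neither at 35.4%. CHD4 was listed at 9.88%, against 27.7% with both factors, 17.2% with ZBTB11 alone and 8.56% with neither. Within the ZFP131-alone promoters CHD4 fell from 23.0% in the lowest quartile of ZFP131 reads to 7.06%, 4.65% and 4.65% in the others. These are shares of pooled lists, and the differences between classes were not tested.

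The 12 promoters with the most ZFP131 reads were Larp7/Zgrf1 (a 7SK RNA-binding protein and a DNA repair helicase on a shared promoter), Nup133 (nuclear pore scaffold), Pef1 (a calcium-binding protein), Prkrip1, Recql5/Sap30bp (a DNA helicase and a SIN3A-complex-associated protein), Pelp1 (a nuclear receptor coregulator), Klc4/Mrpl2 (a kinesin light chain and a mitochondrial ribosomal protein), Zfand2a (an arsenite-inducible zinc finger protein), Qtrt2 (a tRNA queuosine enzyme subunit), Ppil4 (a cyclophilin-like protein), Kptn (an actin-associated protein) and Timm44 (mitochondrial protein import). Larp7/Zgrf1 (chr3:127552351-127554474) led with 3036 reads in 3 events, Nup133 (chr8:123948335-123950650) had 2828 in 3 and Timm44 (chr8:4274929-4276497) had 2175 in 2.

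H3K27ac was lower at many of these promoters in Zfp131KO, and more often where ZFP131 reads were higher. In the authors' deposited table for H3K27ac in Zfp131KO, 75 of 328 promoters with a region (22.9%) were lower and 6 (1.83%) higher, where 14.3% and 15.8% of all 69018 regions were. Lower H3K27ac was called at 8, 7, 20 and 40 promoters from the lowest to the highest quartile (9.64%, 8.64%, 25.3% and 47.1%). In the same order the median log2 fold change was -0.08, -0.22, -0.48 and -0.79 in the authors' deposited table. The other classes were lower at 11.9% (both factors), 6.96% (ZBTB11 alone) and 13.4% (neither). Across the 328 promoters the rank correlation of fold change with ZFP131 reads was -0.35.

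In Zbtb11KO the same promoters showed no such gradient for H3K27ac. The authors' deposited table had 19 of 330 (5.76%) lower and 15 (4.55%) higher, below the 11.8% and 14.6% of all regions. The rank correlation with ZFP131 reads was 0.06 (n = 330), and in the highest quartile 1 promoter was lower and 4 were higher. H3K27ac was lower in both knockouts at 8 promoters, a count given without the share over all domains. Both comparisons share the wildtype libraries, and the difference between the knockouts was not tested.

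**Figure D2:**
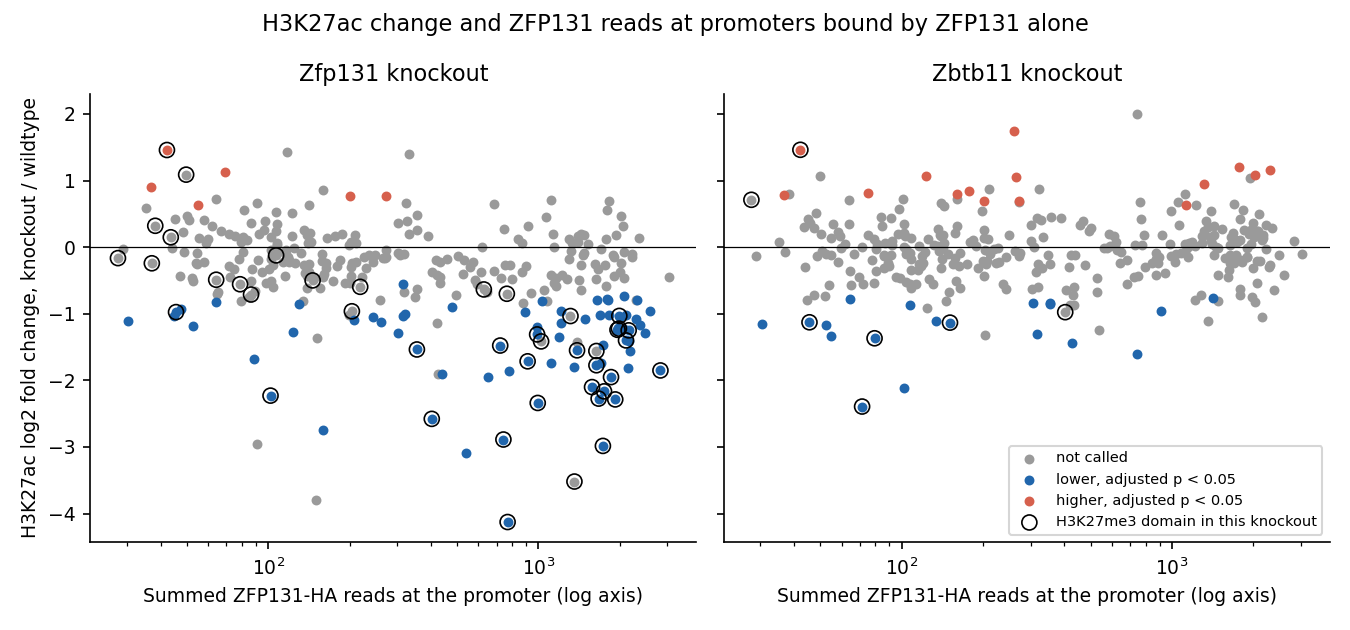
Log2 fold change of H3K27ac against wildtype (y axis, authors' deposited tables) by summed ZFP131-HA reads (x axis, log scale), 1 point per promoter, in Zfp131KO (n = 328) and Zbtb11KO (n = 330). Points called lower gather at high reads in Zfp131KO, where 40 of 85 promoters of the highest quartile are lower, against 1 in Zbtb11KO.

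Among the 12 strongest promoters, H3K27ac was lower at 7 and higher at none in Zfp131KO. In Zbtb11KO it was lower at none and higher at 1, Zfand2a. Nup133 had 310 H3K27ac reads listed in wildtype, 309 in Zbtb11KO and 17 in Zfp131KO. Its log2 fold change in Zfp131KO was -1.85 (SE 0.32, adjusted p = 3.39e-07), by the authors' deposited table. Wildtype and Zbtb11KO thus stood together at Nup133, with Zfp131KO far below. Timm44 had 290 reads in wildtype, 267 in Zbtb11KO and no listed domain in Zfp131KO, with -1.56 (SE 0.36, adjusted p = 1.86e-04), by the authors' deposited table. Prkrip1 had 338, 256 and 68 reads in that order. Its change in Zfp131KO was -1.29 (SE 0.31, adjusted p = 4.06e-04), by the authors' deposited table. At Nup133 the listed reads fell by more than the fold change. The H3K27ac fold change minus the listed log2 ratio ran from -0.14 to 1.56 in Zfp131KO (5th to 95th percentile, n = 228). In Zbtb11KO it ran from -0.19 to 0.83 (n = 238).

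The other 5 promoters of the top 12 did not pass in Zfp131KO. Zfand2a, at -0.80 (SE 0.33, adjusted p = 0.0507), was as far from wildtype as the called Klc4/Mrpl2 at -0.79, by the authors' deposited table. Pelp1 had 478 H3K27ac reads in wildtype, 490 in Zbtb11KO and 480 in Zfp131KO. At Ppil4 the numbers were 357, 396 and 327, and at Kptn 368, 338 and 332. Larp7/Zgrf1, the strongest of all, had 579, 488 and 411 reads, and its change in Zfp131KO of -0.45 (SE 0.28, adjusted p = 0.207) did not pass in the authors' deposited table.

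Larger falls of H3K27ac in Zfp131KO were called at promoters outside the top 12. The zinc finger gene Zfp72 was at -3.10 (SE 0.52, adjusted p = 2.04e-07), by the authors' deposited table, with 16 listed reads in wildtype and none in either knockout. The shared promoter of Ctu2, a tRNA thiolation enzyme, and Rnf166, a ubiquitin ligase, was at -2.98 (SE 0.48, adjusted p = 4.01e-08), by the authors' deposited table, with 100 reads in wildtype, 76 in Zbtb11KO and no domain in Zfp131KO. An unnamed domain (chr15:79972353-79973050, mm10) had 73 reads in wildtype and none in either knockout, with -2.89 (SE 0.45, adjusted p = 1.16e-08) in Zfp131KO and -1.60 (SE 0.43, adjusted p = 0.00198) in Zbtb11KO by the authors' deposited tables.

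The 6 rises in Zfp131KO were all below the median of ZFP131 reads. The peptide transporter gene Slc15a1 (42.2 ZFP131 reads) had 40 H3K27ac reads in wildtype, 397 in Zbtb11KO and 479 in Zfp131KO. Both knockouts gave a log2 fold change of 1.46 there in the authors' deposited tables (SE 0.35, adjusted p = 3.80e-04 in Zbtb11KO, and SE 0.38, adjusted p = 9.92e-04 in Zfp131KO). The listed reads, which are sums over whole domains, rose by more than these fold changes. NELF was listed at Slc15a1 in wildtype with 691 reads and in no knockout. Agap1, a GTPase-activating protein gene, rose by 1.12 in Zfp131KO (SE 0.29, adjusted p = 0.00119), by the authors' deposited table.

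The 2 largest falls of H3K27ac in Zbtb11KO, at Arl6ip4 and Heca, were in the lowest quartile of ZFP131 reads. Arl6ip4, a splicing-associated gene with 71.4 ZFP131 reads, had 370 H3K27ac reads in wildtype, 302 in Zfp131KO and no domain in Zbtb11KO. The fall was -2.39 (SE 0.33, adjusted p = 1.27e-10), by the authors' deposited table. Listed H3K4me3 at Arl6ip4 was 3197 reads in wildtype, 817 in Zbtb11KO, 3727 in Zfp131KO and 2389 with both deleted. It also had an H3K27me3 domain of 746 reads in Zbtb11KO and none in Zfp131KO, so the change stood in 1 single knockout. Heca fell in H3K27ac in both knockouts, by 2.11 in Zbtb11KO (SE 0.42, adjusted p = 1.45e-05) and by 2.23 in Zfp131KO (SE 0.41, adjusted p = 2.55e-06), by the authors' deposited tables, so a promoter of the lowest quartile was also lower in Zfp131KO. D3Ertd751e/Sclt1 fell in Zbtb11KO by 1.44 (SE 0.32, adjusted p = 1.31e-04), by the authors' deposited table. Nsun6, an RNA cytosine methyltransferase gene, rose by 1.75 (SE 0.34, adjusted p = 9.70e-06), by the authors' deposited table. Ormdl3, a regulator of sphingolipid synthesis, was at 1.21 (SE 0.46, adjusted p = 0.0376) there, but at -0.18 in the region nearest the domain's middle.

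H3K4me3 in Zfp131KO followed the same order. It entered the rule through wildtype, and requiring a wildtype domain favours lower values, so the counts are a description. In the authors' deposited table, 83 of 344 promoters (24.1%) were lower and 60 (17.4%) higher, against 11.4% and 15.1% of all 60238 regions. Lower calls numbered 1, 11, 27 and 44 by rising quartile and higher calls 26, 22, 9 and 3. The same wildtype requirement holds for the other classes, which were lower at 7.65% (both factors), 2.77% (ZBTB11 alone) and 11.4% (neither). The rank correlation with ZFP131 reads was -0.44 (n = 344), and both H3K4me3 and H3K27ac were lower at 40 promoters, 28 of them in the highest quartile. No share over all domains is given for this overlap, so it is a count only.

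**Figure D3:**
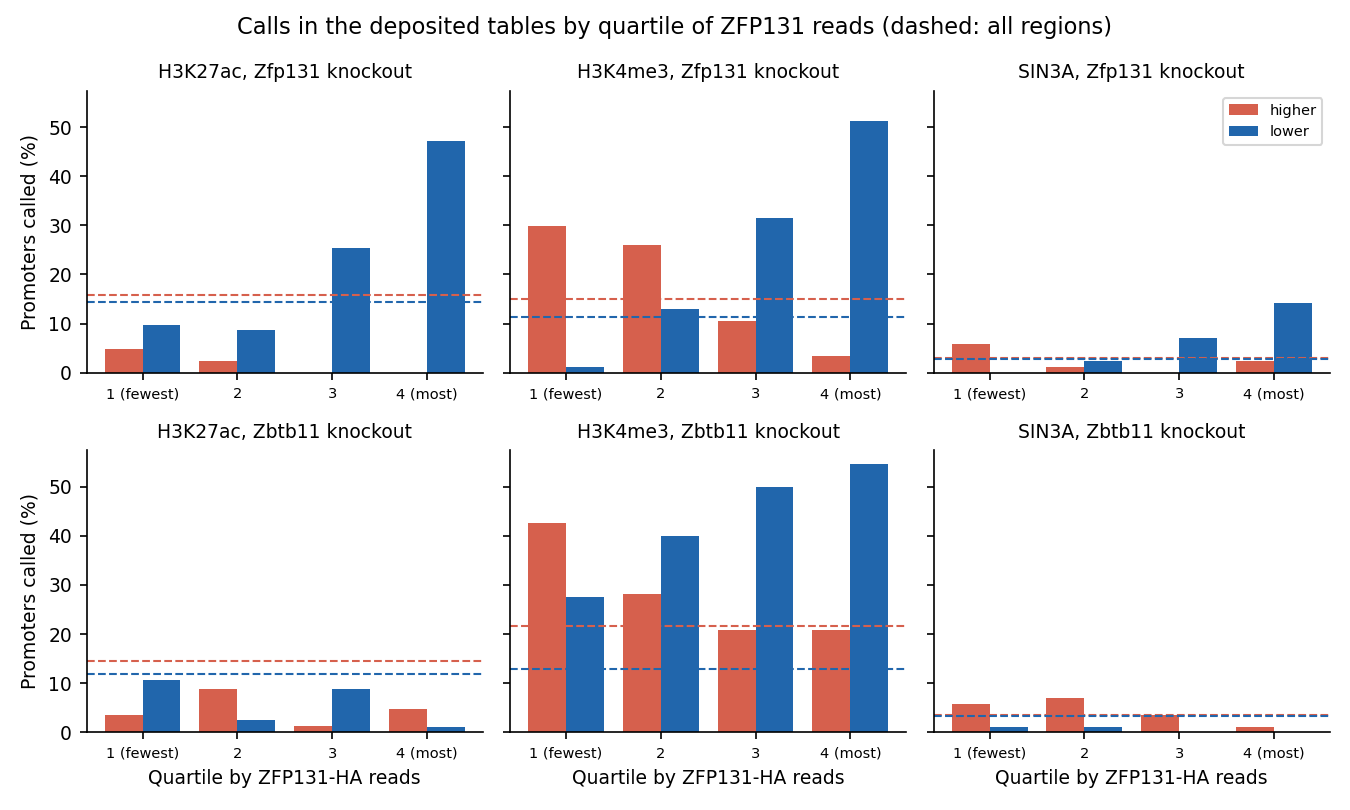
Percent of ZFP131-alone promoters called lower or higher in the authors' deposited tables (y axis) by quartile of ZFP131 reads (x axis). In Zfp131KO the lower calls climb with ZFP131 reads, to 47.1% for H3K27ac, 51.2% for H3K4me3 and 14.1% for SIN3A in the highest quartile. Lower H3K4me3 calls in Zbtb11KO also climb, from 27.6% to 54.7%. That H3K4me3 table of Zbtb11KO departs from the listed reads, as the text states.

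Timm44 had 2852 unscaled H3K4me3 reads listed in wildtype, 1638 in Zbtb11KO, 771 in Zfp131KO and 1610 with both deleted. The fold change in Zfp131KO was -1.55 (SE 0.16), by the authors' deposited table. Over all domains of 500 bp or more, listed H3K4me3 was also higher with both deleted than in Zfp131KO (median log2 ratios to wildtype 0.67 and -0.17). Tbl3, a small-subunit processome gene needed for ribosome assembly, had 2150, 1472, 214 and 200 reads in that order, low in both genotypes that lack Zfp131. Its fold change in Zfp131KO was -2.96 (SE 0.17), by the authors' deposited table.

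At 5 promoters no H3K4me3 domain was listed in Zfp131KO. The double knockout had none at the same 5 either, while Zbtb11KO kept a domain at each. They are narrow, weak domains: Gm36263 (343 reads in wildtype and 79 in Zbtb11KO), and 4 unnamed ones, at chr15:79972353-79973050 (442 and 12), chr11:69373280-69374173 (529 and 103), chr12:54993579-54994271 (290 and 87) and on chromosome 18 (506 and 144). Listed reads in Zbtb11KO were thus also below wildtype at all 5. Gm36263 was at -4.12 (SE 0.48) in Zfp131KO by the authors' deposited table, and the chr15 domain at -4.94 (SE 0.54).

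Higher H3K4me3 in Zfp131KO was called mostly at low ZFP131 reads. Zfp438, a zinc finger gene, had 1298 unscaled reads in wildtype, 1244 in Zbtb11KO, 2113 in Zfp131KO and 4113 with both deleted. Its fold change in Zfp131KO was 1.02 (SE 0.12), by the authors' deposited table. Ccdc86, 1 of the 3 higher calls of the highest quartile, was at 0.83 (SE 0.15) and the shared promoter of Dbil5 and Gemin4, a member of the SMN complex, at 0.82 (SE 0.11), by the authors' deposited table.

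Listed H3K4me3 reads cover all 4 genotypes, and here each ratio to wildtype was centred on all domains of 500 bp or more. The median centred log2 ratio by rising quartile was 0.11, -0.11, -0.20 and -0.18 in Zbtb11KO, -0.01, -0.03, -0.23 and -0.46 in Zfp131KO, and -0.01, -0.06, -0.21 and -0.42 with both deleted. The double knockout and Zfp131KO thus lay close together in each quartile. For Zbtb11KO the authors' deposited table called 148 promoters lower and 97 higher, against 12.9% and 21.6% of all regions with an adjusted p. By rising quartile 27.6%, 40.0%, 50.0% and 54.7% were lower, and the rank correlation with ZFP131 reads was -0.20 (n = 344). Lower calls thus rose with ZFP131 reads in this knockout too. The other classes were lower at 26.9% (both factors), 29.1% (ZBTB11 alone) and 27.5% (neither). The fold changes of this Zbtb11KO table depart from the listed reads. Their difference from the listed log2 ratio had a median of 0.42 and ran from -0.33 to 2.25 (5th to 95th percentile, n = 342), against 0.28 to 0.47 in Zfp131KO (n = 336). At Serinc3, a membrane protein gene, 2233 listed reads in wildtype and 2393 in Zbtb11KO stand beside a log2 fold change of 3.06 in the authors' deposited table. The table's other leading calls in that knockout, higher at Gm39783, 9930021J03Rik and Syncrip and lower at Tbx6, are therefore given without values.

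SIN3A was lower in Zfp131KO only at a minority of promoters, with the same order. In the authors' deposited table, 20 of 339 (5.90%) were lower and 8 (2.36%) higher, against 2.84% and 2.98% of all 68634 regions. Lower calls numbered 0, 2, 6 and 12 by rising quartile, and the rank correlation with ZFP131 reads was -0.34. Zfp72 was at -2.11 (SE 0.35, adjusted p = 1.84e-06), by the authors' deposited table, along with its lower H3K27ac. The other leading falls were at 3 of the 5 promoters without H3K4me3, from -2.10 to -2.29 in the authors' deposited table. Zfp438 was higher, by 1.12 (SE 0.23, adjusted p = 2.98e-04), by the authors' deposited table. Smaller rises there were 0.95 (SE 0.29, adjusted p = 0.0250) at Htatsf1, 0.83 (SE 0.19, adjusted p = 0.00145) at the kinase gene Pskh1 and 0.75 (SE 0.24, adjusted p = 0.0342) at C2cd4b. Of the 12 strongest promoters, 0 were called in SIN3A in either knockout.

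In Zbtb11KO SIN3A was higher at 15 of 344 promoters and lower at 2 in the authors' deposited table, against 3.44% and 3.23% of all regions, and the rank correlation with ZFP131 reads was 0.08. Taf1, the largest TFIID subunit, rose by 1.20 (SE 0.17, adjusted p = 1.24e-08), the helicase gene Ercc6l by 1.14 (SE 0.27, adjusted p = 0.00161), Emc2, an ER membrane complex subunit, by 0.90 (SE 0.20, adjusted p = 8.50e-04) and Zfp438, which also rose in Zfp131KO, by 0.90 (SE 0.25, adjusted p = 0.0115), by the authors' deposited table. The falls there were -0.81 (SE 0.25, adjusted p = 0.0266) at the neural transcription factor gene Sox1 and -0.62 (SE 0.18, adjusted p = 0.0153) at the NF-kappaB inhibitor gene Nfkbid. CHD4 had a region at few promoters. In Zfp131KO 8 of 57 (14%) were lower and none higher, against 8.08% and 8.05% of all regions, and in Zbtb11KO none of 45 was lower and 1 higher, against 2.82% and 9.38%. The largest fall in the authors' deposited table was at Magohb, an exon junction complex gene, with -2.07 (SE 0.50, adjusted p = 8.74e-04). Bcl7a, a BAF complex subunit gene, was at -1.16 (SE 0.39, adjusted p = 0.0254) and Tipin, a replication fork gene, at -1.13 (SE 0.42, adjusted p = 0.0450), by the authors' deposited table.

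NELF was lower in Zbtb11KO at ZFP131-alone promoters about as often as over the whole genome. In the authors' deposited table, 166 of 338 (49.1%) were lower and none higher, where 49.0% and 0.159% of all 70551 regions were. The shift was general: the median log2 fold change was -0.84 at these promoters and -1.04 over all regions. With fold changes centred on that median, 2.07% of the promoters were lower. The same values are deposited for Zfp131KO as well, and were read here as Zbtb11KO. Their Pearson correlation with the listed log2 ratio of Zbtb11KO was 0.83 (n = 280), and Zfp131KO was not compared in this way. The calls ran against ZFP131 reads, with 69.8%, 53.6%, 47.6% and 25.6% lower by rising quartile and a rank correlation of 0.42 (n = 338). The largest falls in the authors' deposited table were -2.69 (SE 0.31, adjusted p = 3.12e-13) at Nfkbid, -2.30 (SE 0.44, adjusted p = 2.13e-05) at Ripor1, -2.27 (SE 0.58, adjusted p = 0.00110) at an unnamed domain (chr11:102633081-102633946, mm10) and -2.18 (SE 0.50, adjusted p = 3.68e-04) at the phospholipase gene Pla2g12a.

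Event lists give NELF in all 4 genotypes, at 338 promoters with at least 50 wildtype reads. The share still listed was 86.1% for Zbtb11KO, 80.8% for Zfp131KO and 52.4% for the double knockout. Among the 291, 273 and 177 promoters still listed, the median log2 ratio of reads, scaled by each list's total, was -0.70, -0.76 and -1.70. Promoters without an event in the knockout are left out of these medians. Over all domains of 500 bp or more the shares were 63.1%, 65.0% and 40.2%. The medians among those still listed were -0.96, -0.78 and -1.78, so NELF reads were lower in general. By rising quartile the share still listed in Zfp131KO was 90.7%, 83.3%, 75.6% and 73.3%. Among those still listed the log2 ratio showed no such order, with medians of -0.90, -0.56, -0.82 and -0.83 and a rank correlation of -0.06 with ZFP131 reads (n = 273). Promoters with both factors kept NELF at 97.3%, 97.2% and 80.8% in the same 3 genotypes. No test was possible on these pooled lists, and 23.1% of the wildtype reads but 5.1% of the double knockout reads fell in events.

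**Figure D4:**
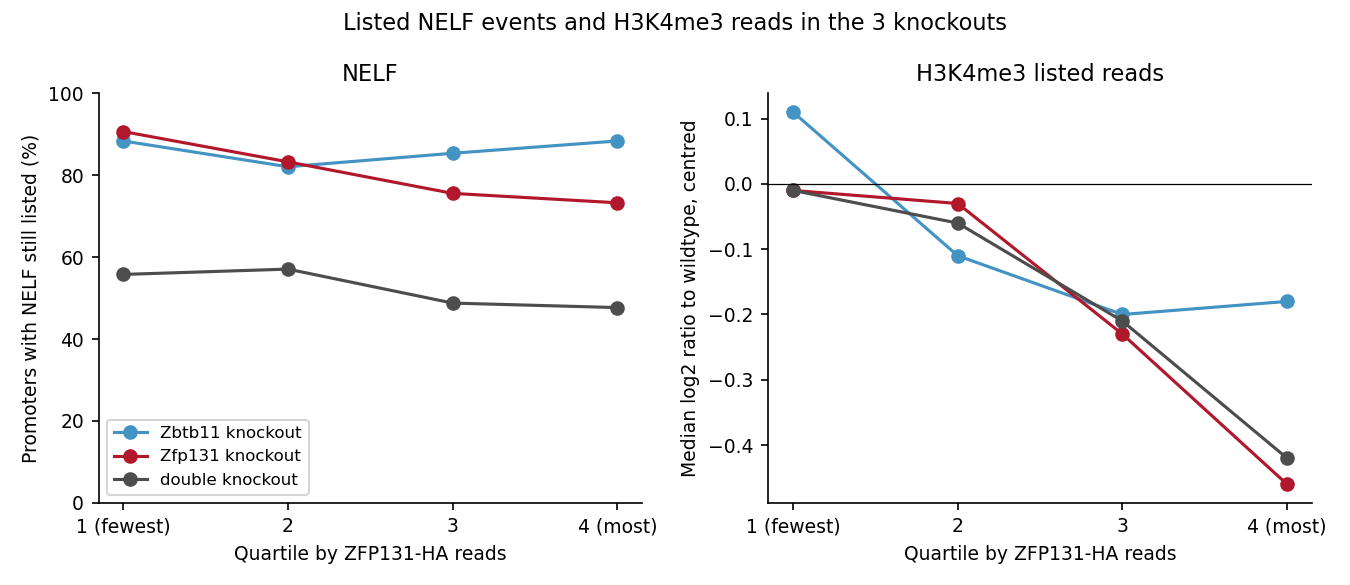
Listed NELF and H3K4me3 at ZFP131-alone promoters by quartile of ZFP131 reads (x axis) in the knockouts relative to wildtype. NELF in Zfp131KO is still listed at 90.7% of the lowest and 73.3% of the highest quartile, and the centred log2 ratio of H3K4me3 in the highest quartile is -0.46 in Zfp131KO, close to the -0.42 of the double knockout.

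The steps of NELF are visible at single promoters. Klc4/Mrpl2 had 1303 NELF reads in wildtype, 699 in Zbtb11KO, 671 in Zfp131KO and no event in the double knockout. Zfand2a had 1222, 846, 254 and 195 reads in that order. Aasdh, whose promoter is shown above, had 1453 reads in wildtype and 774, 589.9 and 270.3 in the knockouts. At all 3 the double knockout was lowest.

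H3K27me3 domains, absent in wildtype by the rule, appeared at 47 promoters (13.7%) in Zfp131KO and at 9 (2.62%) in Zbtb11KO, with 4 in both. In Zfp131KO they numbered 13, 4, 12 and 18 by rising quartile. The other classes, under the same rule, had such domains at 10.6%, 7.45% and 9.91% in Zfp131KO and at 5.05%, 5.81% and 5.60% in Zbtb11KO (both factors, ZBTB11 alone, neither). In the authors' deposited tables, 33 of the 47 and 4 of the 9 were higher and none lower, against 11.7% and 9.09% of all regions higher and 6.18% and 4.83% lower. Because the rule allows no wildtype domain, these calls could only be higher. The domain of Scfd2, a Sec1-family gene, held 316 reads in Zfp131KO and that of Tbl3 held 100. Nup133 gained a domain of 93 reads and Rnf141 one of 12. The 4 called in Zbtb11KO were Arl6ip4, Sox1, Sult4a1 and the cell cycle gene E2f2, all in the lowest quartile of ZFP131 reads.

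Promoters with an H3K27me3 domain in Zfp131KO more often had lower active marks in the same cells. H3K27ac was lower there in Zfp131KO at 24 of 43 (55.8%, median log2 fold change -1.31), against 51 of 285 (17.9%, -0.25) without the domain, in the authors' deposited table. SIN3A was lower at 12 of 46 (26.1%) against 8 of 293 (2.73%), and H3K4me3 at 22 of 47 (46.8%) against 61 of 297 (20.5%). In Zfp131KO NELF was listed at 63.8% of the former and 81.8% of the latter. Median ZFP131 reads were 764 with the domain and 271 without it. The 2 sets were split by a mark of the same knockout, so these values are given with no test.

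At 13 promoters, Zfp131KO had an H3K27me3 domain, no H3K27ac domain and no NELF event together. They fall at 0, 1, 4 and 8 by rising quartile of ZFP131 reads. The combination was singled out after the data were seen and was present at 3.78% of ZFP131-alone promoters, 1.08% with both factors, 1.71% with ZBTB11 alone, 6.10% with neither and 19.6% of all domains of 500 bp or more. Where H3K27ac and NELF were also listed in wildtype, it was left at 10 promoters (2.91%), against 1.01%, 0.743%, 1.65% and 2.20% in that order, with no test of the differences. None had NELF in the double knockout or H3K27me3 in Zbtb11KO. Of the 13, 4 are unnamed, and those at named genes include Med9, Magohb, Tbl3, Glod4/Mrm3, Gpr89, Apmap, Guf1 and Spata7.

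Med9 (chr11:59947703-59949225), a Mediator subunit gene, had 196 H3K27ac reads in wildtype, 229 in Zbtb11KO and none in Zfp131KO, where H3K27me3 was at 176 reads. Its NELF reads were 420.8 in wildtype and 269.5 in Zbtb11KO, with no event in Zfp131KO or the double knockout. H3K4me3 remained listed there, with 2736 unscaled reads in wildtype, 1875 in Zbtb11KO, 1143 in Zfp131KO and 1832 with both deleted. Glod4/Mrm3 (chr11:76242677-76244623), a glyoxalase-domain gene and a mitochondrial rRNA methyltransferase gene on a shared promoter, had 194, 169 and no H3K27ac reads in wildtype, Zbtb11KO and Zfp131KO, and H3K27me3 of 278 reads in Zfp131KO. Gpr89 (chr3:96904469-96905824), the Golgi pH regulator gene, had 134, 101 and no H3K27ac reads in that order, with 325 H3K27me3 reads in Zfp131KO. At all 3 an H3K27ac domain was listed in wildtype and Zbtb11KO and none in Zfp131KO, while 4 of the 13 had none in Zbtb11KO either.

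An unnamed domain (chr16:17921229-17922870, mm10) had the most H3K27me3 of the 13, with 743 reads in Zfp131KO. Its NELF reads were 894.9 in wildtype and 469.5 in Zbtb11KO. Of the other promoters, Apmap had 17, Guf1, a mitochondrial elongation factor gene, 20, and Spata7 31 H3K27me3 reads, near the low end of listed domains. Wildtype H3K27ac was also low, with 10 reads at Apmap, 10 at Guf1 and 29 at Spata7. An unnamed domain (chr13:48227802-48228450) had 10 as well, against a median of 204 over all ZFP131-alone promoters. The absence of an H3K27ac domain in Zfp131KO is thus a small step there. Magohb and an unnamed domain (chr11:69373280-69374173) had no H3K27ac domain in wildtype either, and another (chr15:79972353-79973050) had no wildtype NELF event, so these 3 did not lose all marks counted here.

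**Figure D5:**
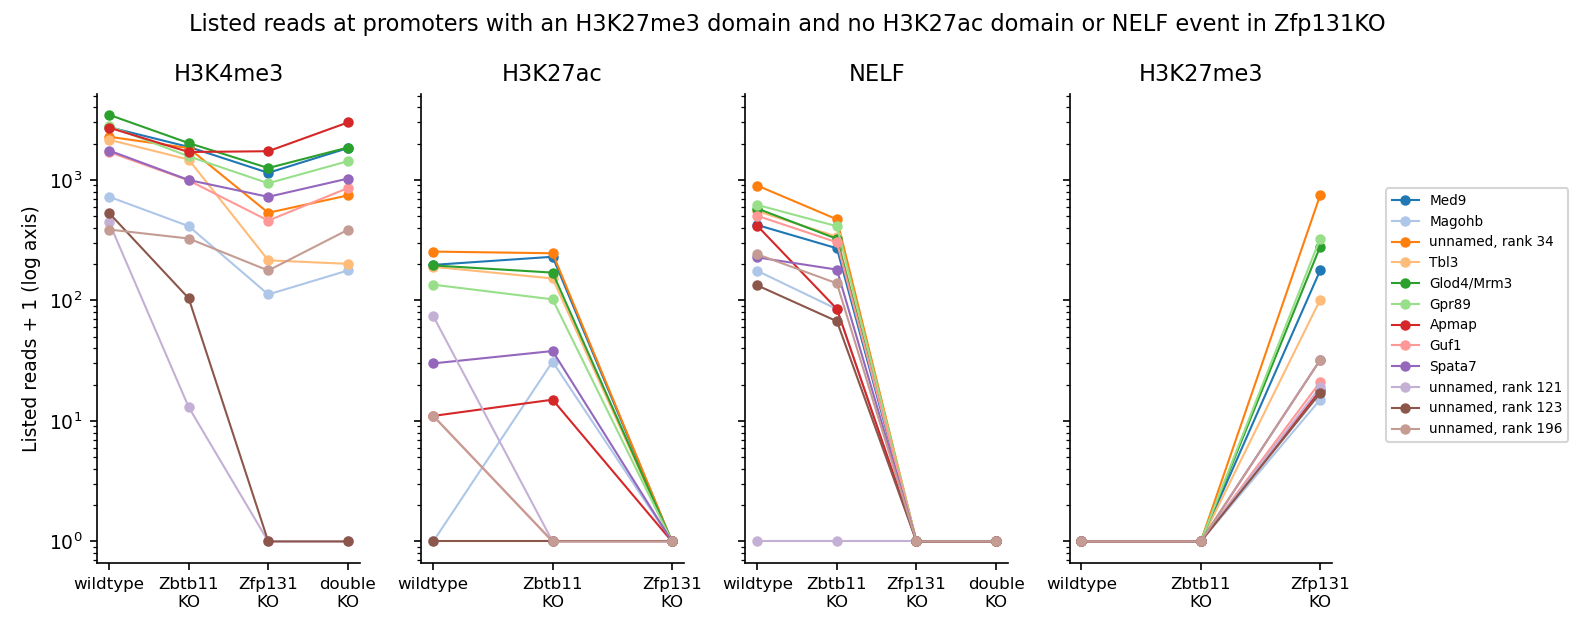
Listed reads plus 1 (y axis, log scale) by genotype (x axis) in a panel each for H3K4me3, H3K27ac, NELF and H3K27me3, with 1 line per promoter, at 12 of the 13 promoters with an H3K27me3 domain, no H3K27ac domain and no NELF event in Zfp131KO. H3K27me3 is at 0 reads in wildtype and Zbtb11KO at each of them, and H3K27ac and NELF are at 0 in Zfp131KO.

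By gene group, 345 of 12874 protein-coding genes at H3K4me3 domains (2.68%) lay at ZFP131-alone promoters. Mitochondrial ribosome genes did so in 6 of 72 (8.33%), with Mrpl2, Mrpl55, Mrpl11, Mrpl54, Mrps5 and Mrpl15. H3K27ac in Zfp131KO was lower at 1 of the 6, Mrpl2, with -0.79 (SE 0.29, adjusted p = 0.0246), and H3K4me3 at 2, Mrpl2 and Mrpl55, in the authors' deposited table. Mrps5 shares its promoter with Zfp661. Mediator genes did so in 3 of 30 (10.0%). H3K4me3 was called lower in Zfp131KO at all 3, with -0.98 at Med9 (SE 0.11), -0.80 at Med6 (SE 0.24) and -0.37 at Med27 (SE 0.15), by the authors' deposited table. All 3 lie in the highest quartile of ZFP131 reads, where 51.2% of promoters were called lower. H3K27ac was lower at 1 of them, Med9, with -1.25 (SE 0.39, adjusted p = 0.00783).

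Zinc finger genes numbered 12 of 397 (3.02%), and 4 of them (Zfp729a, Zfp738, Zfp712 and Zfp759) lay at 67 to 68 Mb of chromosome 13, a stretch with 7 ZFP131-alone promoters. H3K27ac in Zfp131KO was lower at 3 of 11 with a region, Zfp72, Zfp738 and Zfp61, and higher at none. Zfp738 was at -0.96 (SE 0.39, adjusted p = 0.0450) and Zfp61 at -1.90 (SE 0.55, adjusted p = 0.00416), by the authors' deposited table. H3K4me3 was lower at 3, Zfp72, Zfp738 and Zfp759, and higher at 2, Zfp438 and Zfp354c. Zfp729a, the zinc finger gene with the most ZFP131 reads (1416), passed neither test in Zfp131KO. Other groups had few: 2 of 42 respiratory complex I genes (Ndufb6, Ndufa3), 2 of 41 genes of complexes II to V (Atp5d, Sdha), and 1 each of the nuclear pore (Nup133), the proteasome (Psmd5), the spliceosome (U2af1) and the histones (H4c1). No cytosolic ribosome gene of 73, no aminoacyl-tRNA synthetase gene of 31, no RNA polymerase subunit gene of 25, no initiation factor gene of 48, no pluripotency gene of 18 and no p53 target of 14 was among them.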

How the data were processed

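ChIP-seq of 9 targets in mouse embryonic stem cells gave 48 samples in 24 groups of 2. The submitters' processing notes give mm10, Bowtie 1.0.1 for alignment, bedtools, and DESeq2 1.28.1. MultiGPS event lists, deposited by the authors, give for each event its unscaled signal in reads, a log2 fold over control and a score, per the file headers. DomainFinder (SEED) lists, called on pooled replicates, give each domain's read count with a p-value, per the file headers. For each region the DESeq2 tables deposited by the authors list mean signal, log2 fold change, SE, Wald score, p-value and adjusted p-value. No file holds values per library, so the planned edgeR test was replaced by the authors' adjusted p under 0.05, taken over each whole table.

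Each promoter took the table region of highest mean signal that overlaps the domain, or lies within 500 bp for events. Genes were given by RefSeq starts of GRCm38.p6, the assembly of mm10, in or within 500 bp of the domain. Otherwise they were given by either boundary, start or end, of a protein-coding gene within the same distance. NELF reads were scaled by header totals and compared from 50 wildtype reads up. The NELF table of Zfp131KO was identical to that of Zbtb11KO, and the SIN3A events of Zfp131KO were identical to those of CHD4. The shared values were used only as NELF in Zbtb11KO and as CHD4 in Zfp131KO. Motifs were counted on both strands of 32851 RefSeq promoters. Python 3.11.15, pandas 2.3.3, numpy 2.4.6 and scipy 1.17.1 were used, and the scripts were tested on simulated data. No set test or resampling over regions was run.

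The promoters and gene lists were chosen with earlier results of these data known. Named genes were the 12 promoters with the most ZFP131 reads, up to 4 higher and 4 lower calls per table by fold change, up to 4 of each gene list by ZFP131 reads, and the neighbours of each threshold. Where further list members are named, they were added after their values were seen. Unnamed domains are given where they carry a result. 1 named promoter is not reported here by name or value.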

Additional observations from a re-analysis of the deposited data

How the results depend on the processing

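No paired analysis was possible because the files hold no values per library, and for the same reason no replicate could be left out and the planned edgeR and scaling alternatives for counts were not run. Over 48 main results, 299 alternative values stayed close to the main value and 30 moved. Close meant inside the 95% interval of the main share or median, or inside a fixed fold range for the number of promoters. The intervals treat promoters as independent, and most alternatives reuse the same promoters, so most values were likely to stay inside. With an adjusted p under 0.01 the percent called fell, in Zfp131KO, to 16.2 for lower H3K27ac (35.3 in the highest quartile), 18.6 for lower and 12.2 for higher H3K4me3, 44.7 for higher H3K27me3, 3.51 for lower CHD4 and 0.885 for higher SIN3A. In Zbtb11KO it fell to 2.73 for lower and 1.21 for higher H3K27ac, 34.6 for lower H3K4me3, 23.1 for lower NELF, 2.03 for higher and 0 for lower SIN3A, and 0 for higher CHD4. Centred on the table's median, NELF in Zbtb11KO was lower at 2.07% and H3K4me3 at 36.0%. With the region nearest the domain's middle, NELF was lower at 43.2% and H3K27ac at Ormdl3 in Zbtb11KO reversed to -0.18. Outside the main results, 183 values for named calls and further motifs were the same. In 20 a named call no longer passed, 7 motif shares moved, and the 1 reversal was at Ormdl3. Domains of 1000 bp or more had NELF at 100%, SETD1A at 80.8%, polymerase II at 99.3% and H3K27ac at 97.0% in wildtype, centred H3K4me3 medians of -0.18, -0.24 and -0.18 (Zbtb11KO, Zfp131KO, double knockout), lower H3K4me3 in Zfp131KO at 0% of the lowest quartile, and higher CHD4 in Zbtb11KO at 0%. The last was also 0% with the upper 75% of ZFP131 events. Unscaled NELF medians were -0.94 in Zbtb11KO and -1.46 in the double knockout. TGACG was in 57.1% of promoters over the 150 bases nearest the start. Taking 1 promoter per domain was added after the data were seen. Depth limits what absence from a list means: a promoter without a listed event or domain may hold signal under the caller's threshold.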
